A study of Mus musculus with 30 samples.

Results

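The genes described are 10 core genes of the Notch pathway in mouse gastrocnemius muscle: the ligands Dll1, Dll4, Jag1 and Jag2, the receptors Notch1, Notch2 and Notch3, and the target genes Hes1, Hey1 and Heyl. They were chosen by gene symbol, with the longest expressed row kept where a symbol had several, and all 10 were found and passed the filter on low levels, among 12030 genes tested of 56951 symbols. The question was whether receptors and targets followed Dll1, whose level differed between the groups.

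The 30 mice were male wild-type C57BL/6J, 10 weeks of age at purchase, each housed alone with a running wheel. All were entrained for 2 weeks to light from 8:00 to 20:00 and then kept for 2 weeks in constant darkness. The LD group (n = 14, after 2 mice were lost) returned to that light-dark cycle for 64 weeks, and the ADV group (n = 16) lived through a phase advance of 8 h once every 4 days for as long, a model of chronic jet lag. Muscle was taken over several hours of the light period, when both groups shared the same light hours, and the plantaris was collected with the gastrocnemius. The hour at which each mouse was sampled is not given in the sample labels, so it may differ between mice and between groups. Each library is 1 mouse, and 18875468.5 to 28512674 reads per library were counted on exons, with medians of 21711467.5 in LD and 22152249.25 in ADV.

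Notch signaling works between neighboring cells. A ligand of the Delta or Jagged family on 1 cell binds a Notch receptor on the next, the receptor is cleaved, and its intracellular part enters the nucleus, joins the DNA-binding protein RBPJ and switches on repressors of the Hes and Hey families. In skeletal muscle the pathway is known for keeping satellite cells, the muscle stem cells, from differentiating, and in vessels it takes part in the patterning of endothelium and mural cells.

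The windows of 250 bases before the 5′ end of the target genes Hes1 and Heyl are shown because the question turns on targets of the pathway. They lie on the plus strand at chr16:29883877-29884126 (Hes1) and chr4:123127099-123127348 (Heyl). Positions are those of GRCm39, with the start of the same transcript in the GENCODE vM39 annotation. Capitals mark the core of the RBPJ motif, TGGGAA, which was searched on both strands (TTCCCA on the other one).
Hes1: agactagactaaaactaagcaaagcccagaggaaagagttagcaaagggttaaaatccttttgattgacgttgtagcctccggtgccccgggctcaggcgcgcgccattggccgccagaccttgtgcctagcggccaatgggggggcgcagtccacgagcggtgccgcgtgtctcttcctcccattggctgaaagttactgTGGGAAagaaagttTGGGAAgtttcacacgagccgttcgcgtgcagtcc
Heyl: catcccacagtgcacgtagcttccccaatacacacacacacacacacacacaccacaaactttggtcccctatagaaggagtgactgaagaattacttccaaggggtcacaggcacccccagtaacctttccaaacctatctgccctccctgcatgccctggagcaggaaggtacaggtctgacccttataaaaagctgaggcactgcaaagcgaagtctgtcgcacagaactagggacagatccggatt
The Hes1 window held this core at 2 places, starting 49 and 35 bases before the transcript start, and the Heyl window did not hold these letters. Of 12028 windows of the same length, 21.6% held the core. The E-boxes CAGCTG and CACGTG, which read the same on both strands, were in neither window and in 11.7% and 7.71% of all windows. These counts describe letters in a window and say nothing of binding.

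In these muscles the members stood at low to moderate levels. FPKM, which divides the reads of a gene by its exon length and by the reads of the library, allows levels of different genes to be set side by side. Over the 30 mice, Jag2 had the highest mean (5.94 FPKM), followed by Hes1 (5.66) and Notch3 (3.39). Notch1 and Dll4 came next, with 2.26 each, then Heyl with 1.94, Jag1 with 1.90, Hey1 with 1.85 and Notch2 with 1.65, and Dll1 was the lowest with 1.36. Jag2 and Hes1 were not separated by the spread between mice, since Jag2 was the higher one in 8 of 14 LD mice and 11 of 16 ADV mice. Hes1 stood above Notch3 in 14 LD and 14 ADV mice, and Notch3 above Notch1 in every mouse. The genes from Notch1 to Notch2 in this order overlapped their neighbors, among them Heyl and Jag1, where Heyl was the higher in 7 LD and 7 ADV mice. Notch2 lay above Dll1 in all 14 LD mice but in 7 of the 16 ADV mice.

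Dll1 was the member that rose in ADV. This Delta-family ligand is expressed in differentiating myogenic cells and is read from the minus strand at chr17:15587616-15596238 (GRCm39, 11 exons). Its level in LD mice ran from 0.671 to 1.80 FPKM with a median of 1.02, and in ADV mice from 0.810 to 2.34 with a median of 1.67. Of the 16 ADV mice, 15 stood above the LD median and 4 above the highest LD mouse, so that the groups overlapped. The rise was 0.58 ± 0.14 (log2 fold change and SE, 95% interval 0.29 to 0.87), a fold of 1.50, with an FDR of 0.0111 by edgeR's quasi-likelihood test with Benjamini-Hochberg adjustment. Counting error alone would spread Dll1 by 9.15% at its mean of 119 reads per library, less than the spread between mice within a group (30.4% in LD and 26.6% in ADV). In whole muscle, more cells of a type and more RNA per cell cannot be told apart, which holds for every level given here.

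Clock genes moved with the groups. Of 5 listed genes that peak with Bmal1, 3 were higher in ADV, and of 8 that peak in the opposite phase, 7 were lower, among them Dbp (26.8 FPKM in LD and 8.60 in ADV). Group membership took up 50.5% of the variance between mice of a score made from these 13 genes. With that score as a covariate, the difference of Dll1 was 0.36 ± 0.19 with an edgeR FDR of 0.410. No gene of the 12030 passed in that fit, where 1581 had an unadjusted p under 0.05 and none of the 10 members did.

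Dll1 shares up to 1181 of its 3581 exon bases (32.98%) with genes on the opposite strand, Fam120b and Gm64896. Bases shared with both are counted once for each. The libraries were stranded, but whether strand was used in counting is not given in the sources used here. Fam120b itself stood at 4.63 ± 0.34 FPKM (SD) in LD and 4.77 ± 0.31 in ADV, a log2 fold change of 0.03 ± 0.04 (SE) with an edgeR FDR of 0.651. From mouse to mouse its level ran at r = -0.31 with that of Dll1.

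**Figure D1:**
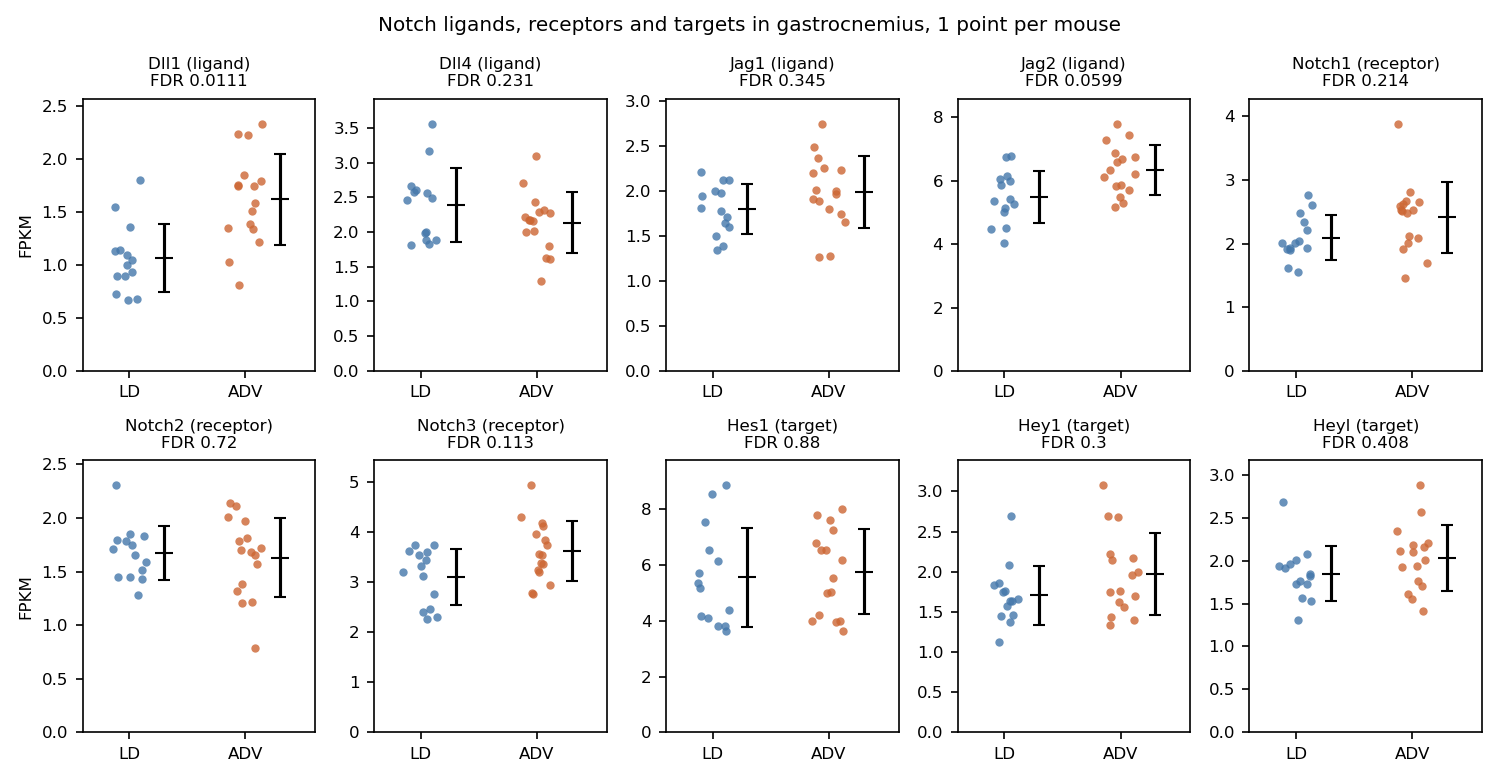
FPKM (vertical axis, from 0) of the 10 members in LD and ADV mice, with 1 point per mouse and the mean ± SD beside each group (n = 14 and 16). Only the Dll1 panel has an FDR under 0.05 (edgeR), with LD mice from 0.671 to 1.80 and ADV mice from 0.810 to 2.34, and in every panel the groups overlap.

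Of the 10 members, Dll1 alone was called at an FDR under 0.05, against 10.8% of all genes tested. The study had already reported its rise, so the share to set beside this background is that of the other 9. Dll1 was also the 1 member with a fold change over 1.3 besides, which 2.09% of all genes had. None of the other 9 passed by edgeR. An unadjusted p under 0.05 was found there for 2 of them, against 3624 of all 12030 genes. DESeq2 and limma each called 1 of the 9, Jag2, and the Wilcoxon test called none. Over all 12030 genes DESeq2 called 1679, limma on log2(FPKM + 0.1) 1308 and the Wilcoxon test 1134. By direction, 8 members were higher and 2 lower in ADV, against 6111 higher and 5919 lower of all genes. The median log2 difference was 0.15, or 0.13 without Dll1, against 0.003 over all genes.

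The other ligands had values on either side of 0. Jag2, a Jagged-family ligand encoded at chr12:112871439-112893396 (minus strand, 26 exons), had levels of 4.02 to 6.77 FPKM in LD with a median of 5.39, and of 5.17 to 7.80 in ADV with a median of 6.27. Of the 16 ADV mice, 14 lay above the LD median and 4 above all LD mice. The log2 fold change was 0.19 ± 0.07 with an edgeR FDR of 0.0599, which falls short of the threshold. By DESeq2 the FDR was 0.0453 and by limma on log2(FPKM + 0.1) it was 0.0478, so the call rests on the tool. It also rests on single mice, since edgeR called Jag2 without LD mouse 21 or 34 and without ADV mouse 30, 31 or 35, with FDRs of 0.0357 to 0.0459. Jag2 is the member with the highest GC content, 61.9% against a median of 50.4% over all genes, and with the trend in GC content removed its log2 fold change was 0.05 with an FDR of 0.625.

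Jag1, the other Jagged ligand (chr2:136923376-136958564, minus strand, 26 exons), ranged from 1.34 to 2.21 FPKM in LD with a median of 1.80, and from 1.26 to 2.75 in ADV with a median of 1.99. The ADV mice reached both above and below the LD mice, and the log2 fold change was 0.13 ± 0.09 with an edgeR FDR of 0.345. Dll4, a Delta ligand best known from sprouting endothelium (chr2:119156265-119166443, plus strand, 11 exons), ranged from 1.82 to 3.56 FPKM in LD with a median of 2.48. In ADV it ranged from 1.29 to 3.10 with a median of 2.17, and 2 of the 16 ADV mice lay above the LD median. Its log2 fold change was -0.19 ± 0.11 with an edgeR FDR of 0.231, and with the clock score as a covariate it turned to 0.077 ± 0.14 (FDR 0.829). Dll1 made up 9.83% ± 2.11 (SD, n = 14) of the summed ligand FPKM in LD and 13.3% ± 2.69 (n = 16) in ADV.

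No receptor passed the test. Notch1, expressed in satellite cells and endothelium among others (chr2:26347915-26393834, minus strand, 34 exons), ranged from 1.55 to 2.76 FPKM in LD with a median of 2.01, and from 1.46 to 3.88 in ADV with a median of 2.52. The log2 fold change was 0.18 ± 0.10 with an edgeR FDR of 0.214. Both the highest and the lowest value of Notch1 belonged to ADV mice. Notch2 (chr3:97920854-98057677, plus strand, 34 exons) ranged from 1.28 to 2.31 FPKM in LD and from 0.787 to 2.14 in ADV, with medians of 1.68 and 1.69. Its log2 fold change was -0.06 ± 0.10 with an edgeR FDR of 0.720. The value of 0.787 came from ADV mouse 34, which stood apart from the others, was also the lowest ADV mouse for Notch1, Notch3 and Hey1, and had the highest share of reads on exons (92.7%, with the other libraries from 90.9% to 92.0%). The exon share also moved with the groups, at 91.17% ± 0.12 (SD) in LD, where no library exceeded 91.3%, and 91.53% ± 0.37 in ADV. Its part in the differences between the groups was not tested. Without ADV mouse 34 the log2 fold change of Notch2 was -0.0088, and Dll1 was still the 1 member called (0.58, FDR 0.0146).

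Notch3, the receptor of vascular mural cells (chr17:32339794-32385826, minus strand, 33 exons), was the most abundant receptor. It ranged from 2.26 to 3.75 FPKM in LD with a median of 3.27, and from 2.77 to 4.95 in ADV with a median of 3.56. Of the 16 ADV mice, 7 lay above the highest LD mouse. The log2 fold change was 0.20 ± 0.09 with an unadjusted p of 0.0252 and an edgeR FDR of 0.113. The GC content of Notch3, 59.7%, was the next highest after that of Jag2, and its log2 fold change was 0.091 (p = 0.286) with the trend in GC content removed and 0.065 (p = 0.364) with the endothelial score as a covariate.

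The targets had no member past the threshold either. Hes1, a repressor that answers Notch in many tissues (chr16:29884158-29886614, plus strand, 4 exons), ranged from 3.63 to 8.85 FPKM in LD with a median of 5.25, and from 3.62 to 8.01 in ADV with a median of 5.86. The LD and ADV mice spanned nearly the same range. The log2 fold change was 0.04 ± 0.15 (95% interval -0.26 to 0.34) with an edgeR FDR of 0.880. Its spread between mice was the largest of the members in LD, at 31.8% of the mean, while counting error accounts for 7.04%.

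Hey1 (chr3:8728419-8732316, minus strand, 5 exons), a repressor prominent in endothelium, ranged from 1.12 to 2.698 FPKM in LD with a median of 1.65, and from 1.33 to 3.08 in ADV with a median of 1.86. The log2 fold change was 0.19 ± 0.12 with an edgeR FDR of 0.2996. Heyl (chr4:123127349-123143668, plus strand, 5 exons), a target of Notch in mural and satellite cells, ranged from 1.31 to 2.69 FPKM in LD with a median of 1.83, and from 1.42 to 2.88 in ADV with a median of 2.05. Its log2 fold change was 0.11 ± 0.09 with an edgeR FDR of 0.408. For both genes 11 of 16 ADV mice lay above the LD median and 1 above the highest LD mouse.

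Gene models on the other strand or the same one also overlap Dll4 (14.6% of its exon bases), Jag1 (1.23%), Notch1 (up to 25.4%), Notch2 (5.15%), Notch3 (10.03%) and Hey1 (9.20%). Bases that Notch1 shares with several such models are counted once for each. Jag2, Hes1 and Heyl have no such overlap in the annotation. Reads of a partner on the opposite strand could not be told apart from those of the member if strand was not used, and reads in the bases that Notch2 shares with Gm42820, on the same strand, could not be told apart in either case.

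The intervals show what the data allow for each member. A rise as large as that of Dll1 (0.58) lay outside the 95% interval of each of the other 9, whose upper bounds ran from 0.03 (Dll4) to 0.44 (Hey1). The difference itself was tested by setting each gene against Dll1 in the same library, with limma on the log2 ratio. All 9 members had a smaller change than Dll1, by -0.38 ± 0.15 (Notch3) to -0.76 ± 0.17 (Dll4), with FDRs from 0.000366 to 0.0337. For the targets the change minus that of Dll1 was -0.53 ± 0.22 for Hes1, -0.41 ± 0.18 for Hey1 and -0.47 ± 0.17 for Heyl. These 9 of 9 are to be read against 91.9% of all genes, which also changed less than Dll1 by this test, so the result is not particular to the pathway. With the clock score as a covariate none of the 9 passed by limma, nor had any an unadjusted p under 0.05. No gene of all 12029 passed in that fit either, where 2340 had an unadjusted p under 0.05. Leaving out LD mouse 29 took Hes1 over the threshold (FDR 0.0547), and leaving out LD mouse 29 or 31 or ADV mouse 22, 28, 32 or 34 did so for Hey1 (FDR up to 0.0753).

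Around the members, 48 further genes of the pathway were listed by role, and 40 passed the filter on low levels. In ADV 2 of the 40 were higher and 4 lower, 15% in all against 10.8% of all genes, 5.61% higher and 5.2% lower. None had a fold change over 1.3, and the median log2 fold change was 0.01. Among nuclear factors, Kat2b, which encodes a histone acetyltransferase, fell by 0.18 ± 0.04 (edgeR FDR 0.0135). Rbpj itself had 3.98 ± 0.36 FPKM (SD) in LD and 3.66 ± 0.48 in ADV. The most abundant of this group, Snw1, had a log2 fold change of 0.01 ± 0.04.

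Among enzymes that add sugars to the receptor, Poglut1 fell by 0.21 ± 0.04 (edgeR FDR 0.00377), while the most abundant, Rfng, had 0.06 ± 0.06. Of 9 genes of receptor cleavage, Aph1b, a subunit of gamma-secretase, fell by 0.23 ± 0.07 (edgeR FDR 0.0312), and the abundant Psenen and Furin had 0.09 ± 0.05 and 0.11 ± 0.04 without passing. Of 8 genes whose products restrain or modify the pathway, the E3 ligase genes Dtx2 and Itch changed in opposite directions, Dtx2 by 0.21 ± 0.06 (FDR 0.0273) and Itch by -0.16 ± 0.05 (edgeR FDR 0.0432). The most abundant of them, Egfl7 and Dtx3, had 0.11 ± 0.08 and 0.05 ± 0.04. None of the 5 genes of ligand ubiquitination passed, with Neurl1a at 0.08 ± 0.04 and Mib1 at -0.20 ± 0.12. Nor did the other receptor Notch4 (0.06 ± 0.12), Hes6 (0.17 ± 0.10) or Nrarp (-0.09 ± 0.13). Dll3, Dlk1, Dner, Hes5, Hes7, Hey2, Aph1c and Dtx1 were below the filter. The count of 6 fell to 2 with the trend in GC content removed and to 0 with the clock score as a covariate, where 5 had an unadjusted p under 0.05. Over all 12030 genes the count fell likewise, from 1301 to 604 with the trend in GC content removed. It fell to 0 with the clock score, where 1581 had an unadjusted p under 0.05.

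**Figure D2:**
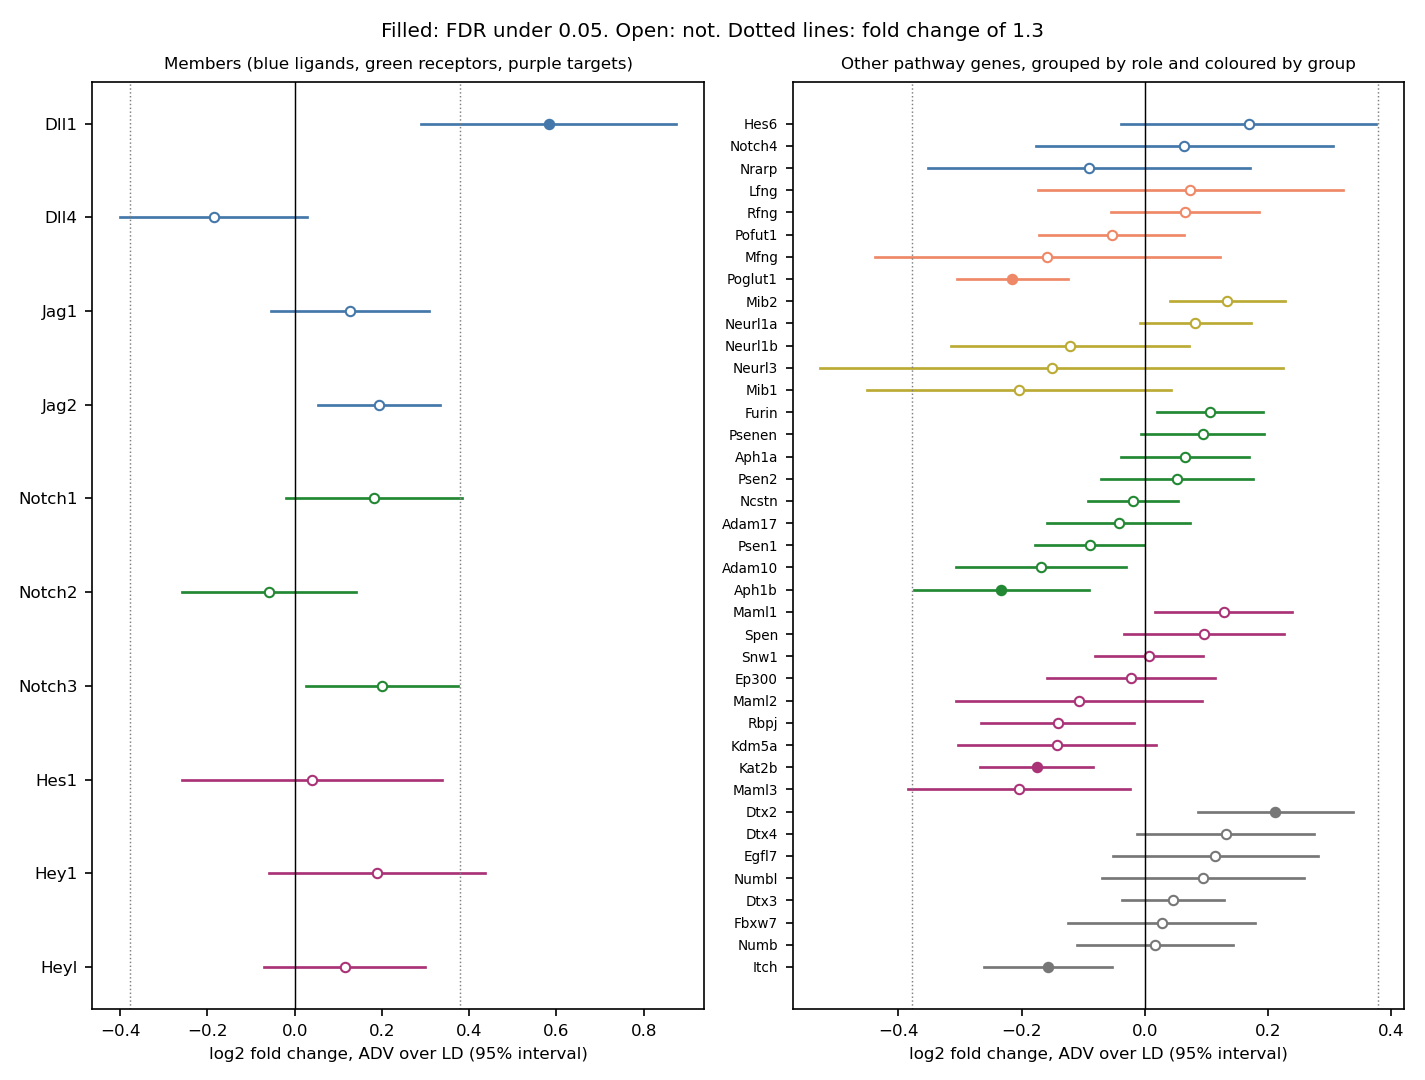
Log2 fold change of ADV over LD (horizontal axis) with its 95% interval for the 10 members (left) and for 39 other pathway genes, grouped and coloured by role (right). Filled points have an edgeR FDR under 0.05 and dotted lines mark a fold change of 1.3. Dll1 at 0.58 is the 1 filled point among the members, and 5 of the 39 points on the right are filled, all within the dotted lines.

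Whether members followed Dll1 from mouse to mouse was asked with the group means removed. A term for the log2 level of Dll1 was fitted in every other gene beside the group, and a gene was called at an FDR under 0.05 over 12029 genes. Of the 9 other members, 2 were called, against 6.04% of all genes, 3.17% in the same direction as Dll1 and 2.87% in the opposite one. Jag2 was higher where Dll1 was higher and Hes1 was lower, and no receptor passed over all mice.

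Jag2 changed by 0.30 ± 0.07 log2 units per log2 unit of Dll1, with an edgeR FDR of 0.00964. Over the 30 mice Pearson's r was 0.63 (permutation p = 2e-04, two-sided) and Spearman's rho was 0.52 (permutation p = 0.00464). Without ADV mouse 30 and LD mouse 23, the 2 mice farthest from the median of Dll1, r was 0.60. Within LD mice alone r was 0.76 and within ADV mice alone it was 0.49 (permutation p = 0.0515). The edgeR FDR of the Jag2 slope was 0.0288 in LD alone and 0.570 in ADV alone, where 31 of all 12029 genes passed. With the replicate numbers of the labels as a block, the Jag2 slope was 0.37 ± 0.10 (edgeR FDR 0.177), and no gene of all 12029 passed.

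Hes1, the target with the core motif at 2 places, had a slope of -0.53 ± 0.16 with an edgeR FDR of 0.0378. Pearson's r was -0.53 (permutation p = 0.00371) and rho was -0.56 (permutation p = 0.00201). It was -0.43 without the 2 farthest mice, -0.47 in LD alone (permutation p = 0.0899) and -0.58 in ADV alone (permutation p = 0.0179). Within LD mice alone the edgeR FDR of the Hes1 slope was 0.255, and within ADV mice alone it was 0.336. With the replicate numbers of the labels as a block, the slope was -0.12 ± 0.21 (edgeR FDR 0.913), and no gene of all 12029 passed. With all mice, the call was lost without LD mouse 23, 29, 31 or 34 and without ADV mouse 30 or 31, with FDRs up to 0.105. The LD mouse with the lowest Dll1, mouse 29, had the highest Hes1 of its group (8.85 FPKM), and the LD mouse with the highest Dll1, mouse 23, had the lowest Hes1 (3.63 FPKM). The extremes of ADV did not pair in this way. ADV mouse 28, with the highest Dll1, had a Hes1 level of 6.185 FPKM, above the ADV median of 5.86. ADV mouse 30, with the lowest Dll1, had 7.6 FPKM, below the ADV maximum of 8.01.

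Hey1 and Heyl had slopes near 0, 0.02 ± 0.16 and -0.02 ± 0.12, and Pearson's r of 0.01 and -0.04. Their 95% intervals, from -0.30 to 0.34 and from -0.26 to 0.22, leave room for slopes of either sign. Among the receptors, Notch3 had a slope of 0.23 ± 0.10 (edgeR FDR 0.192) with r = 0.41 (permutation p = 0.0282) and rho = 0.31 (permutation p = 0.101). Notch1 had 0.20 ± 0.12 (edgeR FDR 0.374) and Notch2 0.18 ± 0.12 (edgeR FDR 0.452), with r = 0.31 and 0.26. Jag1 had 0.27 ± 0.10 (edgeR FDR 0.126), with r = 0.42 (permutation p = 0.0234), and Dll4 had 0.04 ± 0.14. Of these 9 relations, 4 had a permutation p under 0.05, those of Jag1, Jag2, Notch3 and Hes1. In the fits of the Dll1 term, an unadjusted p under 0.05 was found for 4 of the 9 members and for 2398 of all 12029 genes.

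In LD mice alone, r with Dll1 was 0.75 for Notch1 (permutation p = 0.00181) and 0.68 for Notch2 (permutation p = 0.00818), and the Notch1 slope passed in LD alone (0.43, edgeR FDR 0.0357), while in ADV mice r was 0.03 and 0.05. A test of the difference in slope between the groups gave ADV minus LD -0.43 ± 0.24 for Notch1 (p = 0.0771, edgeR FDR 0.995) and -0.32 ± 0.24 for Notch2 (p = 0.196, edgeR FDR 0.995), so a difference was not shown. None of the 9 members had an FDR under 0.05 or an unadjusted p under 0.05 in this test, and 1 gene of all 12029 had such an FDR.

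**Figure D3:**
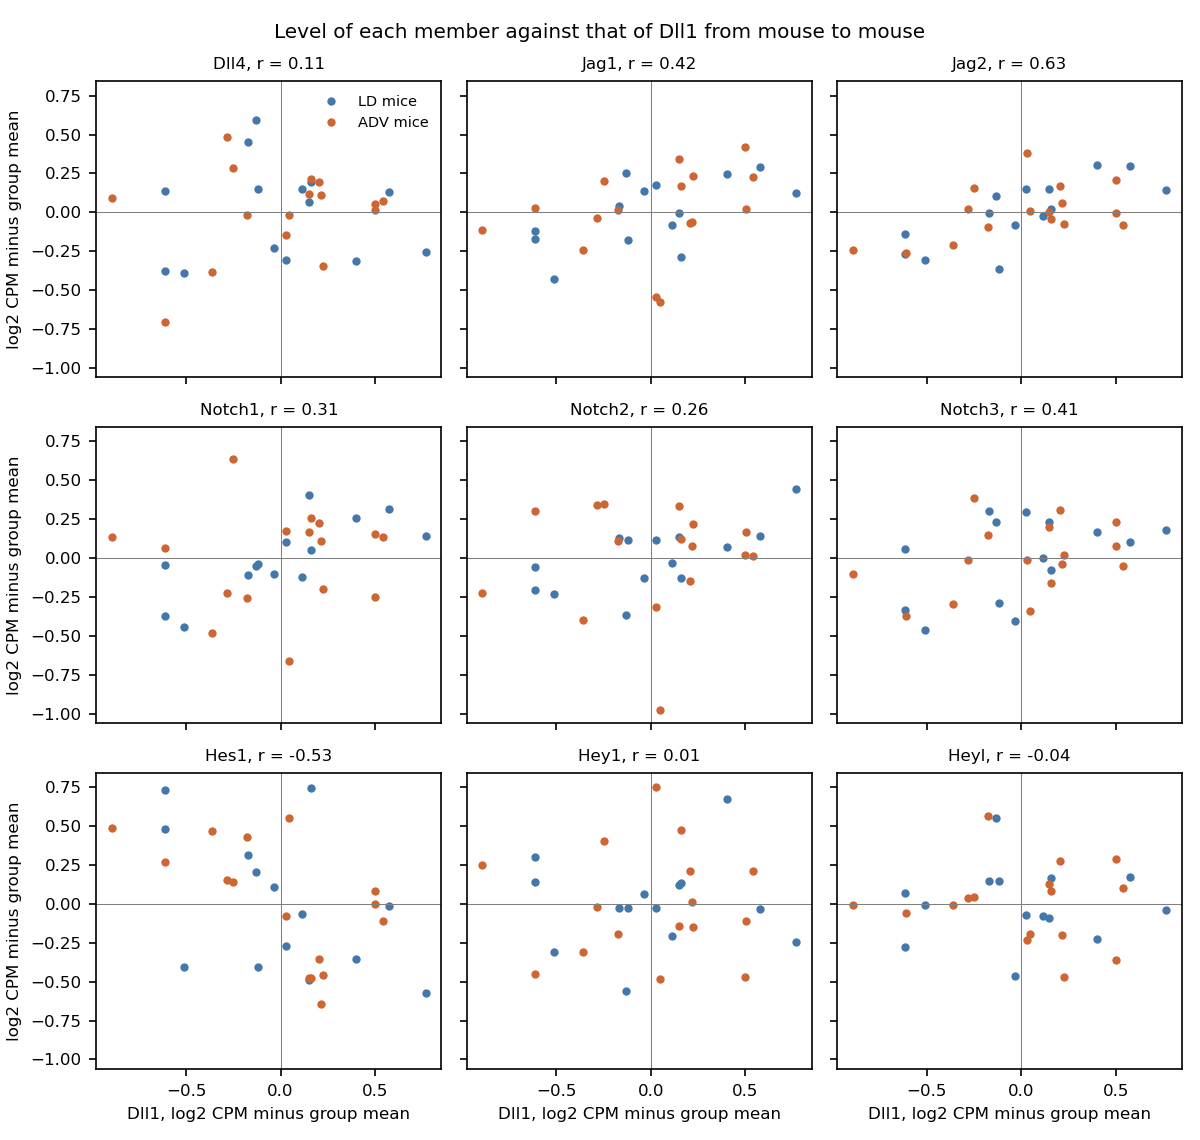
Log2 CPM of each of the 9 other members (vertical axis) against that of Dll1 (horizontal axis), both as the difference from the mean of the group, with 1 point per mouse (blue LD, n = 14, orange ADV, n = 16). Points of Jag2 rise with Dll1 (r = 0.63), points of Hes1 fall (r = -0.53), and those of Hey1 (0.01) and Heyl (-0.04) show no slope.

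The genes whose level was most like that of Dll1 over the 30 mice, by Pearson's r with the group means removed, were Sall4 (0.83), Npr1 (0.80), Dyrk2 (0.79), Calm2 (0.79) and Maf (0.77). Jag2 stood at place 109 in this order of 12029 genes and Hes1 at place 11701. Between LD and ADV, the 5 genes most like Dll1 had edgeR FDRs from 0.0613 (Dyrk2) to 0.860 (Sall4), so none was called. Sall4 stood close to the filter of 0.5 FPKM, with means of 0.521 in LD and 0.545 in ADV. Myod1, the myogenic transcription factor, had a slope of 0.72 ± 0.21 on Dll1 (edgeR FDR 0.0357) with r = 0.56. It stood at 6.90 ± 2.22 FPKM (SD) in LD and 11.6 ± 4.95 in ADV. Myog and Myf6, which act later in muscle differentiation, had slopes of 0.28 ± 0.19 and 0.10 ± 0.09 without passing. Among the other pathway genes named here, Fbxw7 (0.27 ± 0.08, edgeR FDR 0.0494, just under the threshold) went with Dll1 and Maml3 (-0.34 ± 0.09, edgeR FDR 0.0227) against it. Of all genes, 3.17% were called in the same direction as Dll1 and 2.87% in the opposite one. Whether pathway genes were called more often than that was not tested.

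The members also went together with each other and with markers of other cells in the muscle, given as a description. The closest pairs besides Dll1 and Jag2 were Jag2 with Notch3 and Jag1 with Notch2, both at r = 0.64 over the 30 mice, and Notch1 with Notch3 (0.59). Hes1 ran against most members, from -0.12 (Hey1) to -0.44 (Notch2) besides Dll1, with Dll4 (0.09) and Heyl (0.19) on the other side of 0. All points share the library and its depth.

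Scores were made as the mean of standardized log2 levels of a marker list, and each was fitted as a term in all genes beside the group. These fits were added after the levels had been seen. Notch3 went with the mural score (r = 0.77, edgeR FDR 0.000918, against 0.84% of all genes called) and with the endothelial score (r = 0.69, edgeR FDR 0.0127, against 1.45%). Notch1 went with the mural score as well (r = 0.62, edgeR FDR 0.0289). Notch2 went with the fibroblast score (r = 0.62, edgeR FDR 0.0111, against 4.41%) and the leukocyte score (r = 0.62, edgeR FDR 0.0114, against 5.59%). Hey1 went with a score of immediate early genes (r = 0.62, edgeR FDR 0.0179, against 1.12%), 6 of 10 of which were higher in ADV. Dll1 was called with none of the 8 scores. Its highest r was 0.48, with the score of myogenic factors, with which no member was called (edgeR FDR 0.267 for Dll1, p = 0.00832), against 0.0665% of all genes. Nor was a member called with the Schwann score (0.258% of all genes) or the clock score (0.166%), and an unadjusted p under 0.05 was found for 3, 0 and 1 members in these 3 fits.

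**Figure D4:**
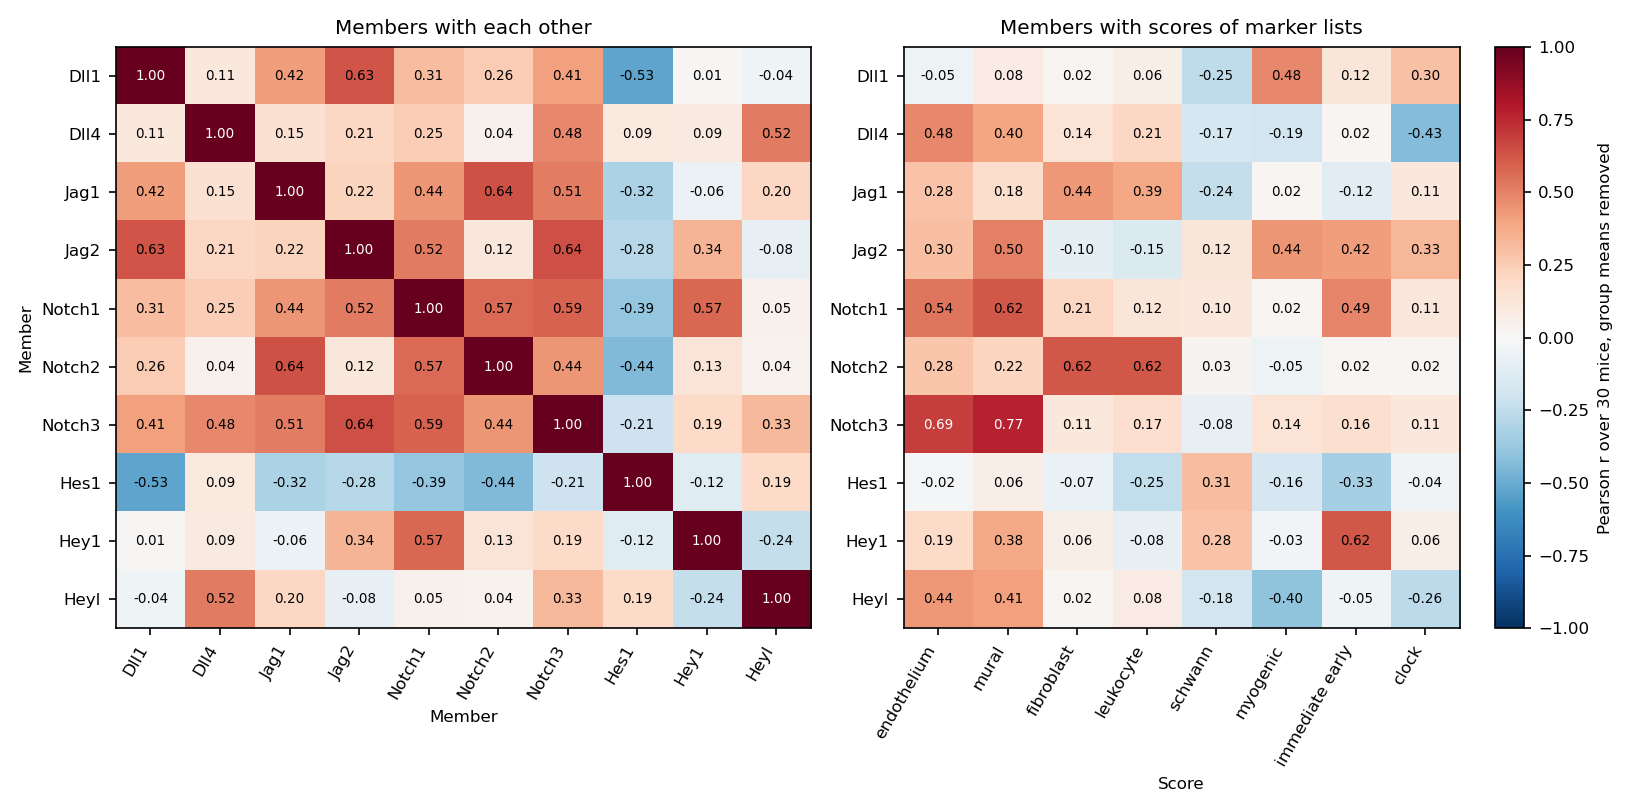
Pearson's r over 30 mice with the group means removed, between the 10 members (left) and between each member and 8 scores made from listed genes (right), on a scale from -1 (blue) to 1 (red). Hes1 stands out by its blue row (-0.53 with Dll1), and the highest value on the right is that of Notch3 with the mural score (0.77).

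Genes of the muscle fiber, led by Tnnt3 and Acta1, summed to 50172 to 68281 FPKM per library, as the tissue label has it, and edgeR called 0 of 8, with 2 at an unadjusted p under 0.05. Endothelial markers, led by Pecam1 and Cdh5, summed to 78.3 to 106 FPKM in LD and 88.8 to 118 in ADV, and 2 of 10 were higher in ADV, Pecam1 and Emcn. Mural markers, led by Des, which fibers also express, and Rgs5, had 1 of 10 higher, Tagln, with sums of 1217 to 1578 FPKM in LD and 1291 to 1678 in ADV. Of 9 satellite cell markers, 5 were tested and Sdc4 was higher, while Pax7, Myf5, Calcr and Megf10 were below the filter. The sum of the 9, led by Itga7 and Sdc4, ran from 36.4 to 47.0 FPKM in LD and from 40.9 to 56.4 in ADV. How much of it came from cells other than satellite cells was not tested. Of 7 fibroblast markers, led by Dcn and Dpt, Pdgfra was lower, with sums of 289 to 397 FPKM in LD and 250 to 420 in ADV. None of 5 leukocyte markers (10.7 to 24.1 FPKM in LD, 9.78 to 19.8 in ADV, led by Csf1r and Cd68) or 5 Schwann markers (24.01 to 45.9 and 26.02 to 80.03, led by Pmp22 and Mbp) was called by edgeR, with 1 and 4 at an unadjusted p under 0.05. The counts of markers called stand beside 10.8% of all genes called, 5.61% higher and 5.2% lower in ADV. Those at an unadjusted p under 0.05 stand beside 3624 of all 12030 genes. By direction, all 5 Schwann markers were higher in ADV (median log2 fold change 0.44), and 4 of the 5 leukocyte markers were lower. No listed marker was at 0 in all libraries. The part of these cells in the levels of Notch1, Notch2, Notch3 and Hey1 was not tested beyond these fits. With the endothelial score as a covariate, the members called were again 1, against 1252 of all 12030 genes. The log2 fold change then was 0.065 for Notch3, 0.045 for Notch1, 0.02 for Heyl and -0.30 for Dll4 (edgeR FDR 0.0558). In that setting 3 members went with Dll1, Notch3 (0.27, edgeR FDR 0.0126) besides Jag2 and Hes1, and 819 of all 12029 genes did.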

How the data were processed

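Gastrocnemius RNA of 14 LD and 16 ADV mice was sequenced as poly(A)-selected stranded paired-end libraries. Per the submitters' processing notes, bcl2fastq, STAR 2.7.10a, HOMER 4.11 and GRCm39 were used. The study's methods add Trimmomatic and the removal of reads with a mapping quality below 10. The authors deposited estimated counts on exons per transcript, without normalization. HOMER counted each mate as 0.5 read, so 14.8% of counts were not whole, and they were rounded here. The authors also deposited FPKM, the same counts per exon length and library total, which the counts gave back to within 0.0005.

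Of 57186 rows with 56951 symbols (232 on several rows), the longest expressed row per symbol was kept, and a gene entered the tests (12030 did) if its mean exceeded 20 reads and 0.5 FPKM. At 20 reads counting error is large, and it was computed for each member. Replicates differed beyond counting noise (smallest chi-square per degree of freedom 10.6 in either group). That each library is a separate mouse comes from the study's methods.

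The main test was edgeR 4.0.16 (quasi-likelihood, TMM, R 4.3.3), with Benjamini-Hochberg FDR under 0.05 over all genes, and a fold change over 1.3 for a differentially expressed gene. limma 3.58.1 tested each gene's log2 ratio to Dll1, and 100000 permutations within groups (numpy 2.4.6, pandas 2.3.3) gave p-values of correlations. DESeq2 1.42.0, limma on log2(FPKM + 0.1) and log2(FPKM + 1), the Wilcoxon rank-sum test, other filters and normalizations, covariates, a replicate block and leaving out each mouse were alternatives. Scripts were tested on simulated data. The members and all lists were chosen with earlier results of these data known. Genes named were the members, listed pathway genes that passed, the most abundant of each list, Myod1, Myog and Myf6, and the 5 genes most like Dll1. Genes called on the Dll1 term or marker lists, clock genes, Rbpj, Notch4, Nrarp and Fam120b were named after their values were seen. Of the listed pathway genes, 1 is counted but not reported here by name, and some sequence windows are not reported here.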

Additional observations from a re-analysis of the deposited data

How the results depend on the processing

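Dll1 was higher in ADV under all 14 alternatives (log2 fold change 0.34 to 0.65) and without any 1 mouse (0.54 to 0.66, FDR 0.0047 to 0.0208), and it passed the threshold in all but the fit with the clock score, where it was 0.36 (FDR 0.410). That score left 0 members, 0 pathway genes and 0 differences from Dll1 called, as it left 0 of all genes in the same fits. DESeq2 and limma on log2(FPKM + 0.1) or log2(FPKM + 1) called 2 members, and leaving out 1 mouse gave 1 to 2, the added one being Jag2. The count of 6 pathway genes became 2 with the GC trend removed, 4 to 7 without 1 mouse, 3 in the 28 libraries with shared numbers and 2 in those with the replicate block. Whether equal label numbers mark pairs of mice is not given in the labels. Over 14 pairs the correlation of deviations ran from -0.26 to 0.43 with a median of 0.01, and 6 were over 0.1. By this measure 3 LD and 2 ADV mice were closest to their own number. A shared effect of the number was not tested. With the block, 0 members went with Dll1 (Jag2 and Notch3 had an unadjusted p under 0.05, 1205 of all genes did, and 0 passed), and the slope of Hes1 was -0.12 ± 0.21 (FDR 0.913), and Dll1 stayed called (0.60, FDR 0.0303). The fits of 28 libraries, of the GC trend in the Dll1 term and differences, and of the marker scores were chosen after seeing the data.

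The 2 members that went with Dll1 became 0 in ADV alone (1 with an unadjusted p under 0.05), Jag2 and Notch1 in place of Jag2 and Hes1 in LD alone (FDR 0.0288 and 0.0357, Hes1 0.255), and 1 to 2 without 1 mouse, and the 4 correlations became 1 in ADV alone. Differences from Dll1 were 7 to 9 without 1 mouse. All genes called numbered 0 to 1679 over the alternatives (604 with the GC trend removed, 616 in the 28 libraries, 494 with the block) and 835 without LD mouse 28. Genes that went with Dll1 numbered 726, and 444 in LD alone, 31 in ADV alone, 397 without LD mouse 23 and 479 without LD mouse 32.

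Some signs turned. The log2 difference of Notch2 was 0.0097 as a ratio of medians (Wilcoxon), and that of Dll4, -0.19 over all mice, was 0.077 with the clock score. Slopes on Dll1 turned for Dll4 in LD alone (-0.042), Hey1 in ADV alone (-0.0057) and by limma (-0.0026), and Heyl with the clock score (0.033) and the block (0.090). Without 1 mouse the slope ran from -0.045 to 0.105 for Dll4, -0.063 to 0.087 for Hey1 and -0.066 to 0.018 for Heyl. Correlations turned for Hey1 (Spearman -0.022, ADV alone -0.0011, FPKM -0.0031), Heyl (Spearman 0.019, LD alone 0.0098) and Dll4 (LD alone -0.0078). The causes were not tested. At 109 to 736 mean reads, counting error of the members is 3.69% to 9.58%, below their spread between mice.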
